A study of Mus musculus with 12 samples.

Results

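The genes described here carry sodium across the distal nephron or belong to the WNK kinase pathway that controls that transport. They were chosen by name, 10 in number, and each had a row in both deposited tables, among 15361 genes in the kidney table and 18145 in the table of F4/80+ preparations. Of the 13733 nuclear protein-coding genes that the tables share, these were 10. All mice had been edited with CRISPR-Cas9 and carried 2 copies of either the Arg-encoding major allele or the Trp-encoding minor allele of rs3184504, a coding polymorphism of Sh2b3, and 4 weeks of angiotensin II, a hormone that raises blood pressure, had been given to all. There were 3 biological replicates in each of 4 groups, 12 libraries in all: Arg/Arg kidney, Trp/Trp kidney, Arg/Arg renal F4/80+ and Trp/Trp renal F4/80+. The F4/80+ material came from other kidneys, passed through a Percoll gradient and taken with anti-F4/80 microbeads, and F4/80 is a surface protein of mouse macrophages. Mice that had not received angiotensin II were not analysed here, and the labels give neither age nor sex of the mice nor how many founder lines were used.

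Sodium that escapes the proximal tubule is taken up in turn by Slc12a1 (NKCC2) in the thick ascending limb, by Slc12a3 (NCC) in the distal convoluted tubule, and by the epithelial sodium channel in the connecting tubule and collecting duct. The channel is built from the products of Scnn1a, Scnn1b and Scnn1g. The kinases encoded by Wnk1 and Wnk4 activate SPAK, encoded by Stk39, which phosphorylates NKCC2 and NCC, while KLHL3 hands WNK kinases to a ubiquitin ligase and the ubiquitin ligase encoded by Nedd4l removes the sodium channel from the membrane. Much of this control acts on phosphorylation and protein turnover, which transcript counts do not measure. Loop diuretics block NKCC2, thiazides block NCC and amiloride blocks the sodium channel.

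In mm10 coordinates, Slc12a1 (ENSMUSG00000027202.12) lies on chromosome 2 from 125152505 to 125230002, and Slc12a3 (ENSMUSG00000031766.4) on chromosome 8 from 94329201 to 94366214. Scnn1a (ENSMUSG00000030340.16) lies on chromosome 6 from 125320659 to 125344943. Scnn1g (ENSMUSG00000000216.8, 121734479 to 121768475) and Scnn1b (ENSMUSG00000030873.9, 121865038 to 121918514) are neighbours on chromosome 7, on the same strand, 96562 bases apart with 0 protein-coding genes between them. Wnk1 (ENSMUSG00000045962.16) lies on chromosome 6 from 119923969 to 120038672, Wnk4 (ENSMUSG00000035112.17) on chromosome 11 from 101260567 to 101277409, and Stk39 (ENSMUSG00000027030.15) on chromosome 2 from 68210445 to 68472268. Klhl3 (ENSMUSG00000014164.15) lies on chromosome 13 from 58000228 to 58113592. The position of Nedd4l is given with its values. Each count is of a whole gene. Wnk1 had 26 annotated transcripts, so its short kidney-specific form, which lacks the kinase domain, could not be told from the full-length form. Slc12a1, Wnk4 and Nedd4l overlap antisense genes and Scnn1b overlaps Cog7 on the other strand, and no source used here gives whether strand was used in counting.

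The sequences around the start sites of the 2 cotransporter genes and of the neighbouring channel genes are shown because these are the pairs whose levels are set side by side in the results. Each run is 300 bases of RefSeq sequence (GRCm38.p6), read on the plus strand of the chromosome, which is the strand of all 4 genes, from 250 bases before to 50 bases after the RefSeq start. Capitals mark TATAAA and CCAAT found on either strand. The positions are chr8:94328958-94329257 for Slc12a3, chr2:125152350-125152649 for Slc12a1, chr7:121864788-121865087 for Scnn1b and chr7:121734229-121734528 for Scnn1g.
Slc12a3: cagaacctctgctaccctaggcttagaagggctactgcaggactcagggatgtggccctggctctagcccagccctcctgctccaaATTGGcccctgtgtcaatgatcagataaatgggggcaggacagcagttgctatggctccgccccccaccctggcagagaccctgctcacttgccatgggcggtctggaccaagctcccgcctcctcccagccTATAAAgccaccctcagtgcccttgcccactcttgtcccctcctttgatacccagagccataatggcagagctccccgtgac
Slc12a1: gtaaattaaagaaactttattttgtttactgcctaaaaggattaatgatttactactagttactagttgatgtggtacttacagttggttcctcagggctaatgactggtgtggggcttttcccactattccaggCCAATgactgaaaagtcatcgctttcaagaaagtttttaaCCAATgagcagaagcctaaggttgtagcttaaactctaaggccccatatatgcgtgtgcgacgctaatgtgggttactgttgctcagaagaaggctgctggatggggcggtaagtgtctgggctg
Scnn1b: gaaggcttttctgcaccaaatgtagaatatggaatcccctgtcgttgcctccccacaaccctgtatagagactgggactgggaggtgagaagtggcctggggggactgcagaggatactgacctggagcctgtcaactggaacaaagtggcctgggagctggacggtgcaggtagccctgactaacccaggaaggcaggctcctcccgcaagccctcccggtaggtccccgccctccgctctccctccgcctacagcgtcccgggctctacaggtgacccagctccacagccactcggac
Scnn1g: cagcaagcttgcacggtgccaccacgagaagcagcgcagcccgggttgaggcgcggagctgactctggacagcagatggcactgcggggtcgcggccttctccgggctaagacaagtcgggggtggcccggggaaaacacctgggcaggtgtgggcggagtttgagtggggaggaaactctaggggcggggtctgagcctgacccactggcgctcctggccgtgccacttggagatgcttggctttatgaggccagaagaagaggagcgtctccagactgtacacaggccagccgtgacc
Slc12a3 held TATAAA, the letters of a TATA box, 32 bases before its start, and CCAAT on the reverse strand (ATTGG as printed) 164 bases before it. Slc12a1 held CCAAT at 115 and 75 bases before its start, and Scnn1b and Scnn1g held neither motif. Of 32851 promoters of the same length, 13.6% held TATAAA and 37.4% held CCAAT on either strand. The letters TGTTCT, part of the site bound by the mineralocorticoid and glucocorticoid receptors, were in 0 of the 8 members with a promoter used here and in 19.0% of all promoters, and GTTAAT, part of the site of HNF1 factors, was in 0 of 8 and in 7.10%. The motifs do not overlap each other in these runs. G and C made up 60.3% of the Slc12a3 run, 42.7% for Slc12a1, 61.7% for Scnn1b and 64.7% for Scnn1g, with a median of 52.7% over all promoters. A match is a match of letters, and its absence says nothing of whether a factor binds.

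Kidney libraries held 19.6 to 54.7 M counts and F4/80+ libraries 35.9 to 51.6 M, of which mitochondrial transcripts took 7.86 to 9.35% and 70.1 to 83.6%. No noncoding genes were in the kidney table, so the shares have different totals. Levels are given in CPM, each gene's share of the nuclear protein-coding counts of its library scaled to a common total. Those counts numbered 17.8 to 49.99 M per kidney library and 6.88 to 11.1 M per F4/80+ library. Trp/Trp kidney replicate 1 stood apart, with summed macrophage markers at 703 CPM against 371 to 532 in the other 5 kidneys and fibroblast and smooth muscle markers at 871 against 415 to 447. The F4/80+ libraries did not match their label as macrophages by these counts. Adgre1, which encodes F4/80, was at 1.26 to 16.7 CPM there and at 4.11 to 8.32 in whole kidney. The 15 macrophage markers in both tables summed to 142 to 418 CPM in F4/80+ libraries, none of them at 0, while 16 proximal tubule markers summed to 19658 to 60504. The material is therefore called F4/80+ preparations here, and its distal nephron transcripts were counted in a mixture of tubule and other cells. In these bulk samples, fewer cells of a type and less RNA per cell cannot be told apart.

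All 10 genes were detected in every library, from 53.9 CPM (Stk39 in Trp/Trp kidney replicate 3) to 6681 CPM (Slc12a3 in Trp/Trp F4/80+ replicate 2). In kidney, per kb of exon and averaged over 6 libraries, the order was led by the cotransporters. Slc12a1 was at 323 ± 25.1 CPM per kb and Slc12a3 at 158 ± 5.52 (SD, n = 6). Wnk4 at 57.3 ± 4.13 and Scnn1a at 56.6 ± 4.12 CPM per kb followed and overlapped each other. Below them came Wnk1 at 35.8 ± 2.46, then Scnn1b at 24.5 ± 1.35 and Scnn1g at 24.5 ± 3.14 CPM per kb, whose libraries also overlapped. Klhl3 at 14.5 ± 0.518, Stk39 at 11.5 ± 0.454 and Nedd4l at 9.30 ± 0.947 CPM per kb closed the order (SD, n = 6 throughout). In 6 of 6 kidney libraries, Slc12a1 was above Slc12a3 per kb of exon. The order depended on the length used. With the longest coding transcript in place of all exons, a choice made after seeing the data, Slc12a3 was at 408 ± 14.3 and Slc12a1 at 392 ± 30.5 CPM per kb (SD, n = 6), since the annotated exons of Slc12a3 add up to 11119 bases and its longest coding transcript to 4310. By that length Wnk1, at 72.1 CPM per kb, was above Scnn1a at 66.8 and Wnk4 at 57.8 in kidney. Nedd4l, at 21.1 CPM per kb, was above Stk39 at 16.2 and Klhl3 at 14.8.

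In the F4/80+ preparations Slc12a3 led, at 399 ± 184 CPM per kb of exon, ahead of Slc12a1 at 189 ± 145 and Wnk1 at 140.4 ± 56.8 (SD, n = 6). Scnn1a was at 121 ± 47.8 CPM per kb, Scnn1g at 85.8 ± 33.3, Wnk4 at 61.8 ± 21.8 and Scnn1b at 54.7 ± 22.9 (SD, n = 6). Klhl3, Stk39 and Nedd4l were again lowest, at 35.6 ± 13.7, 22.3 ± 8.90 and 17.9 ± 3.61 CPM per kb (SD, n = 6). The libraries of every neighbouring pair in that order overlapped. By the longest coding transcript Wnk1, at 283 CPM per kb, was above Slc12a1 at 229.7, and Nedd4l at 40.7 was above Klhl3 at 36.4 and Stk39 at 31.3. Within a library, however, Slc12a3 was above Slc12a1 in 6 of 6 F4/80+ libraries per kb, by either length.

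**Figure D1:**
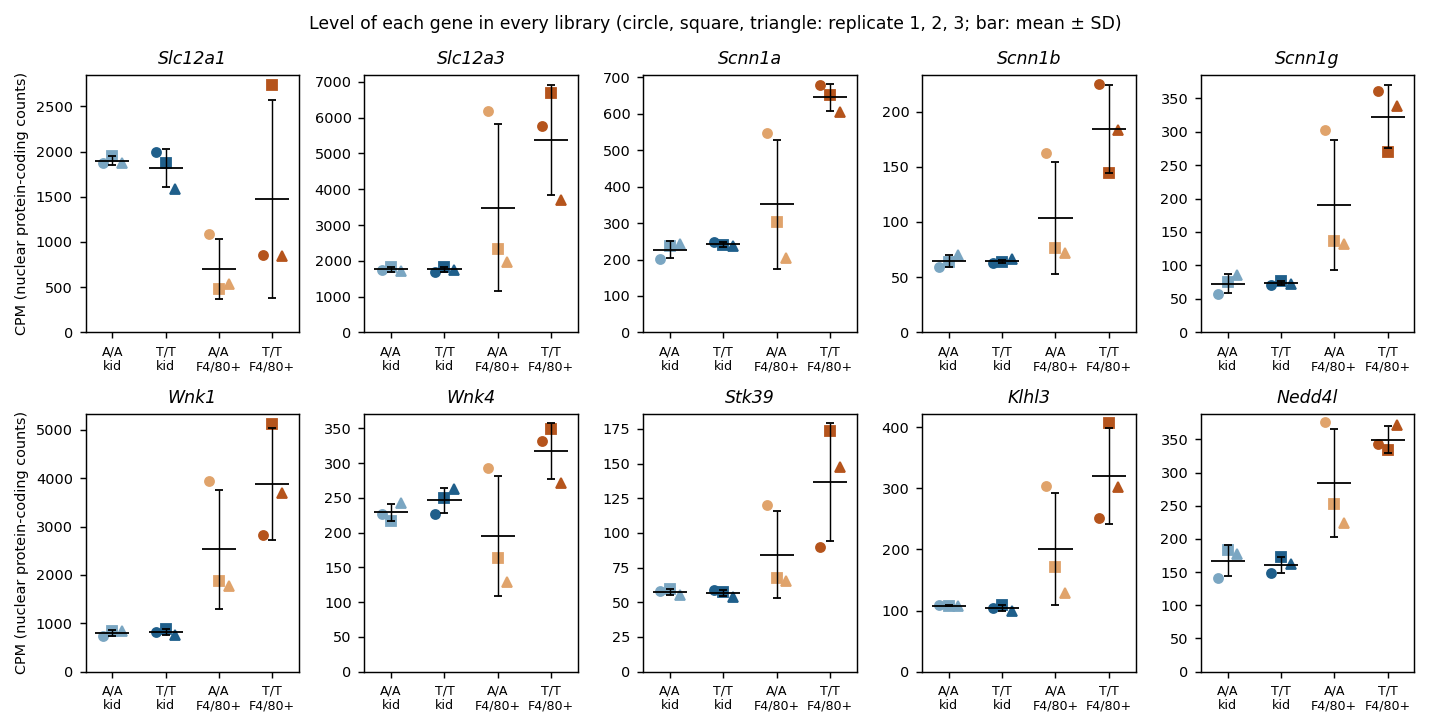
Level of each of the 10 genes in every library, in CPM over nuclear protein-coding counts on a linear axis from 0, for Arg/Arg (A/A) and Trp/Trp (T/T) kidney (kid) and F4/80+ preparations; points are libraries, bars the mean ± SD (n = 3). Kidney values of the genotypes overlap in all 10 panels, and the F4/80+ values are more widely spread, as for Slc12a3 from 1967 to 6681 CPM.

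The first comparison asked whether the alleles differ in these transcripts in kidneys of mice given angiotensin II. In whole kidney the 10 genes had nearly the same level in both genotypes. NKCC2 and NCC transcripts, the 3 channel subunits and the WNK pathway genes differed by at most 0.09 log2 units, and 0 of 10 genes passed the edgeR quasi-likelihood test at a Benjamini-Hochberg adjusted p under 0.05, where 0% of all 14464 genes tested were called. At an unadjusted p under 0.05 there were 0 of 10, against 826 genes or 5.71% of all.

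Slc12a1 was at 1879, 1954 and 1868 CPM in the Arg/Arg kidneys and at 1997, 1877 and 1584 CPM in the Trp/Trp kidneys. Trp/Trp replicate 3 was the lowest of the 6 and the genotypes overlapped. The log2 fold change, Trp/Trp over Arg/Arg, was -0.08 ± 0.08 (SE, edgeR, adjusted p = 0.887), with a 95% interval of 0.836-fold to 1.07-fold. Slc12a3 was at 1733, 1830.0 and 1709.8 CPM in kidneys of Arg/Arg mice and at 1697, 1839 and 1736 CPM in Trp/Trp kidneys. All 6 values lay close together, and the interval of the difference was 0.891-fold to 1.10-fold (log2 fold change -0.02 ± 0.07, edgeR, adjusted p = 0.984).

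The sodium channel subunits gave the same picture. Scnn1a, whose product forms the alpha subunit, was at 200.05, 238 and 242 CPM in kidneys of Arg/Arg mice and at 248, 239 and 237 CPM in Trp/Trp kidneys. Arg/Arg replicate 1 was the lowest, and the log2 fold change was 0.07 ± 0.07 (edgeR, adjusted p = 0.903). Scnn1b, the beta subunit, was at 59.3, 64.01 and 70.1 CPM in kidneys of Arg/Arg mice and at 63.2, 63.8 and 66.1 CPM in Trp/Trp kidneys, with the Trp/Trp values inside the range of the Arg/Arg values. Scnn1g, the gamma subunit, was at 57.1, 75.4 and 85.9 CPM in kidneys of Arg/Arg mice and at 71.4, 76.6 and 72.5 CPM in Trp/Trp kidneys. Arg/Arg replicate 1 was again the lowest, and this gene had the widest interval of the 10, from 0.817-fold to 1.22-fold. The intervals of Scnn1a and Scnn1b were 0.935-fold to 1.18-fold and 0.882-fold to 1.10-fold.

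Among the WNK pathway genes, Wnk4 had the highest log2 fold change of the 10 in kidney, 0.09 ± 0.08 (edgeR, adjusted p = 0.879), with 227, 217 and 243 CPM in Arg/Arg and 227, 249 and 263 CPM in Trp/Trp kidneys. Wnk1 was at 736, 847 and 843 CPM in Arg/Arg mice and at 825, 886 and 764 CPM in Trp/Trp mice, overlapping, with an interval of 0.892-fold to 1.14-fold. Stk39, which encodes SPAK, was at 57.9, 59.7 and 54.96 CPM in Arg/Arg and at 58.8, 57.4 and 53.9 CPM in Trp/Trp kidneys. Its log2 fold change was -0.04 ± 0.06 (edgeR, adjusted p = 0.945). Klhl3, mutated in a familial form of hypertension with high potassium, was at 107 to 108 CPM in kidneys of Arg/Arg mice and at 99.2 to 109 CPM in Trp/Trp kidneys, with an interval of 0.876-fold to 1.04-fold. Nedd4l, which restrains the sodium channel and lies on chromosome 18 from 64887705 to 65217828 (mm10, ENSMUSG00000024589.18), was at 141 to 184 CPM in Arg/Arg and 149 to 173 CPM in Trp/Trp kidneys, with an interval of 0.805-fold to 1.13-fold. In all, 3 of the 10 values were positive and 7 negative, with a median of -0.02, beside 50.6% positive and a median of 0.00 over all genes. The genotypes' libraries overlapped for 10 of 10 genes, where 10.3% of all genes did not overlap. DESeq2 called 0 members and 0.0977% of 15357 genes. Without Trp/Trp kidney replicate 1, the library that stood apart, the median was 0.019 and 7 values were positive. In that fit 1 member had an unadjusted p under 0.05 and 0 passed. Leaving out each kidney library in turn, genes at that unadjusted p numbered 492 to 1254 in all. Without Arg/Arg kidney replicate 1 the median was -0.059, 1 value was positive and 0 members passed. The authors' deposited table gave each of the 10 an adjusted p of 0.9996 in kidney. Macrophage markers summed to 371 to 427 CPM in Arg/Arg and 464 to 703 CPM in Trp/Trp kidneys (median log2 fold change 0.57), without overlap, and their part in the members' values was not tested.

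Other genes of the same control system ranged more widely around a median as small. Of 32 other genes of WNK and SPAK signalling, the aldosterone response and ubiquitin or protease control, 0 passed in either direction in kidney, with log2 fold changes from -0.56 to 0.27, a median of -0.04 and 23 of 32 negative. Tsc22d3 (GILZ), induced by corticosteroids, had 0.27 ± 0.07 (edgeR, adjusted p = 0.843) and was the only gene of this list with an unadjusted p under 0.05. The lowest value, -0.56 ± 0.30, was that of the kinase gene Wnk3. It was near the floor, at 0.506 to 0.925 CPM in kidney, where the members were at 53.9 CPM or more. The steroid-induced chaperone gene Fkbp5 had -0.24 ± 0.14 and the mineralocorticoid receptor gene Nr3c2 -0.21 ± 0.13. Of 24 other salt and potassium channels and pumps, 0 passed, with a median of -0.05. The sodium-dependent bicarbonate exchanger gene Slc4a8 had -0.16 ± 0.11, the potassium-chloride cotransporter gene Slc12a7 0.10 ± 0.07, Cnnm2, linked to magnesium handling, 0.08 ± 0.05, and Kcnj1, the secretory potassium channel ROMK, -0.07 ± 0.06.

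The same comparison was made in the F4/80+ preparations. There all 10 genes had a higher fitted level in Trp/Trp than in Arg/Arg preparations, with log2 fold changes from 0.20 for Nedd4l to 0.94 for Slc12a1 and a median of 0.60, but 0 of 10 passed after adjustment, where 0% of all 15225 genes tested were called. At an unadjusted p under 0.05, 6 of 10 were higher (Slc12a1, Scnn1a, Scnn1b, Scnn1g, Wnk4 and Stk39), beside 4.43% of all genes higher and 8.04% in either direction. Positive values made up 51.1% of all genes, whose median was 0.01. DESeq2 called 0 members and 0.0234% of 17088 genes. The spread between replicates was wider than in kidney, with a common biological coefficient of variation of 0.28 against 0.101 in edgeR.

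Scnn1a was at 548, 302 and 204 CPM in Arg/Arg replicates 1, 2 and 3 and at 679, 652 and 606 CPM in the Trp/Trp replicates. It was the only member whose genotypes did not overlap, where 7.19% of all genes were higher in Trp/Trp without overlap, and its log2 fold change was 0.80 ± 0.30 (edgeR, adjusted p = 0.605). Scnn1b was at 163, 76.8 and 71.7 CPM in Arg/Arg and at 225, 145 and 183 CPM in Trp/Trp preparations, a log2 fold change of 0.77 ± 0.30 (edgeR, adjusted p = 0.605). Scnn1g was at 303, 137 and 132 CPM in Arg/Arg and at 360.0, 269.6 and 338 CPM in Trp/Trp preparations, a log2 fold change of 0.69 ± 0.29 (edgeR, adjusted p = 0.608). For each subunit, Arg/Arg replicate 1 lay near or among the Trp/Trp values and Arg/Arg replicates 2 and 3 lay below them. The authors' deposited table gave log2 fold changes of 0.76, 0.72 and 0.65 for Scnn1a, Scnn1b and Scnn1g, with adjusted p of 0.231, 0.294 and 0.337.

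Slc12a1 was at 1086, 483 and 540.3 CPM in Arg/Arg and at 851, 2734 and 839 CPM in Trp/Trp preparations. Trp/Trp replicate 2 was far above the other 5 libraries, and without it the log2 fold change of 0.94 ± 0.42 (edgeR, adjusted p = 0.616) became 0.24. Slc12a3 was at 6177, 2323 and 1967 CPM in Arg/Arg and at 5776, 6681 and 3692 CPM in Trp/Trp preparations. Here Arg/Arg replicate 1 was the second highest of the 6, and the log2 fold change was 0.56 ± 0.38 (edgeR, adjusted p = 0.752). The interval for Slc12a3 ran from 0.824-fold to 2.62-fold, so a difference of either sign lay within it. For Slc12a1 and Slc12a3 the authors' deposited table gave log2 fold changes of 0.91 and 0.52 and no p-values.

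Wnk1 was at 3949, 1872 and 1776 CPM in Arg/Arg and at 2823, 5113 and 3688 CPM in Trp/Trp preparations, with a log2 fold change of 0.51 ± 0.32 (edgeR, adjusted p = 0.703). Wnk4 was at 294, 163 and 129 CPM in Arg/Arg and at 332, 349.8 and 272 CPM in Trp/Trp preparations, with 0.61 ± 0.27 (edgeR, adjusted p = 0.609). In both, Arg/Arg replicate 1 lay among the Trp/Trp values. Stk39 ranged from 65.2 to 120.4 CPM in Arg/Arg and from 89.9 to 173 CPM in Trp/Trp preparations, with a log2 fold change of 0.59 ± 0.26. Klhl3 ranged from 128 to 304 CPM and from 252 to 407 CPM, with 0.57 ± 0.28, and Nedd4l from 225 to 377 CPM and from 334 to 372 CPM, with 0.20 ± 0.23. The genotypes overlapped for these 5 genes.

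The values also differed among libraries of the same genotype. Arg/Arg F4/80+ replicates 2 and 3 were both below the other 4 libraries for 10 of 10 members, as they were for 27.4% of all 15225 genes. Without Arg/Arg replicate 1, 9 members had an unadjusted p under 0.05, the median was 0.96 and 0 passed after adjustment. Genes at that unadjusted p then numbered 2788 in all, against 1224 with every F4/80+ library kept. Without Arg/Arg replicate 2 none of the 10 had an unadjusted p under 0.05, and without Arg/Arg replicate 3 the median was 0.45. Leaving out each F4/80+ library in turn, genes at that unadjusted p numbered 364 to 2788 in all. Markers of other cell types also differed between these libraries. Proximal tubule markers, 16 in number, summed to 30425, 60504 and 55851 CPM in Arg/Arg and to 36324, 19658 and 31407 CPM in Trp/Trp preparations, and 16 of 16 had a negative log2 fold change (median -0.92). The 10 markers of the distal convoluted tubule summed to 10112, 4832 and 3743 CPM in Arg/Arg and to 8138, 11708 and 10839 CPM in Trp/Trp preparations, with 10 of 10 positive (median 0.54). Summed thick ascending limb markers were at 8347, 4137 and 4059.5 CPM and at 8077, 14819 and 7694 CPM, with 11 of 12 positive (median 0.76). Principal cell markers, of the collecting duct, summed to 2585, 1438 and 1427 CPM and to 2679, 2878 and 3156 CPM, with 9 of 10 positive (median 0.72). Positive values were also found for 10 of 10 intercalated cell markers (median 0.47), 13 of 14 macrophage markers (median 1.31), 6 of 10 endothelial markers (median 0.33) and 8 of 8 fibroblast and smooth muscle markers (median 0.67), and 0 genes of any list passed after adjustment. In Trp/Trp replicate 2, where Slc12a1 was highest, the thick ascending limb sum was also the highest. The part of these marker shifts in the members' values was not tested.

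**Figure D2:**
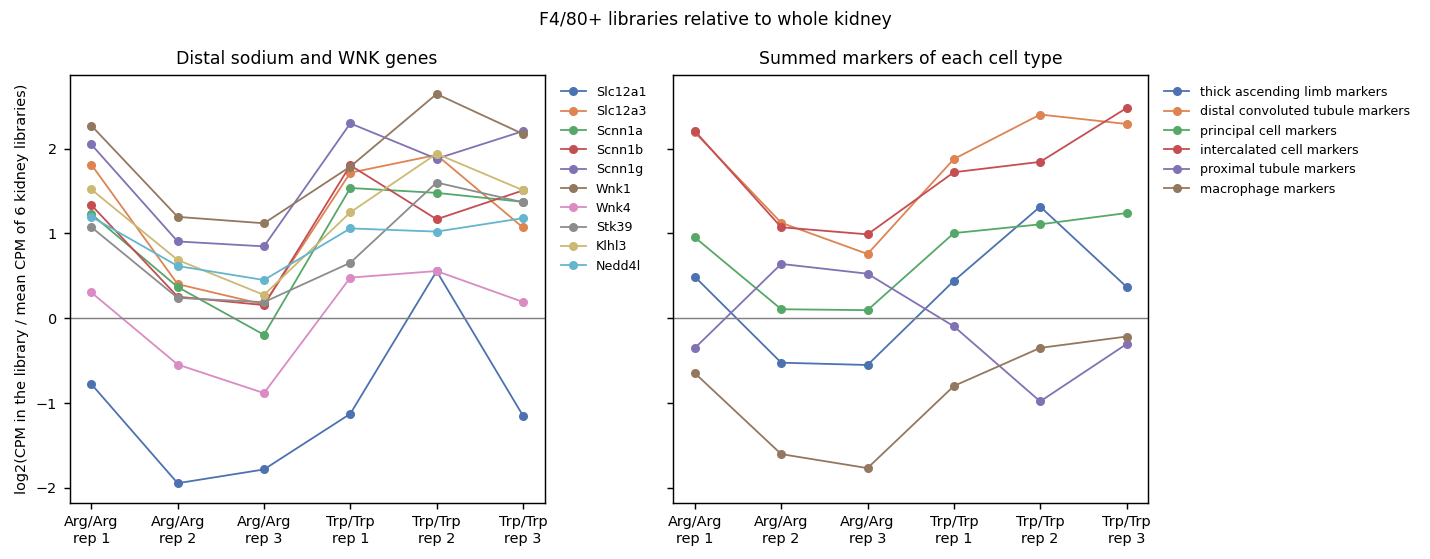
Level in each F4/80+ library over the mean of 6 kidney libraries, on a log2 axis, for the 10 genes (left) and for summed markers of 6 cell types (right); lines only join the points of a gene or list, since replicates have no order. Arg/Arg replicates 2 and 3 are the lowest libraries for most lines, and the proximal tubule line is highest there, at 60504 and 55851 CPM.

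The other genes of the pathway had values of both signs. Of 31 tested genes of the WNK, aldosterone and ubiquitin list, 0 passed in either direction in the F4/80+ genotype comparison and 9 were positive and 22 negative, from -0.59 to 0.74, with a median of -0.09. St14, encoding matriptase, a membrane protease, had 0.74 ± 0.27 (edgeR, adjusted p = 0.605), the phosphatase inhibitor gene Ppp1r1a 0.67 ± 0.28, and Hsd11b2, which shields the mineralocorticoid receptor from glucocorticoids, 0.67 ± 0.31. The deubiquitinase gene Usp8 had -0.49 ± 0.24. Of 24 other salt and potassium channels and pumps, 0 passed and 17 were positive, with a median of 0.47. Trpm6, the magnesium channel of the distal convoluted tubule, had 0.77 ± 0.26 (edgeR, adjusted p = 0.605), Slc4a8 0.74 ± 0.29 and Fxyd4, a sodium pump regulator of the collecting duct, 0.79 ± 0.31, while the potassium channel gene Kcnj15 had -0.98 ± 0.36.

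Whether the genotype difference itself differed between sample types was tested by an interaction over all 12 libraries. This fit, like that between sample types, took a gene's spread between replicates as equal in kidney and F4/80+ libraries. The common biological coefficient of variation was 0.101 in kidney and 0.28 in F4/80+ preparations, and what that does to the SE and p-values was not tested. The difference of log2 fold changes (F4/80+ minus kidney) was positive for 10 of 10 genes, from 0.24 for Nedd4l to 1.02 for Slc12a1, with a median of 0.61. After adjustment 0 of 10 passed in edgeR, with adjusted p from 0.706 to 0.870, where 0% of 13578 genes were called. Unadjusted, Scnn1a and Scnn1b were under 0.05, beside 6.78% of all genes in either direction and 3.22% with a positive value. Positive values made up 50.9% of all genes. DESeq2 called 0 members and 0.051% of 13728 genes. The number of calls depended on the libraries used. Of 12 fits that each left out 1 library, 10 called 0 genes and 2 called some. The most, 580 of all genes, passed without Arg/Arg F4/80+ replicate 1. Among them were 3 of the 10 members, Scnn1a (1.04, adjusted p = 0.0334 in edgeR), Scnn1b (1.10, adjusted p = 0.0332) and Scnn1g (1.04, adjusted p = 0.0422). Leaving out each of the other 11 libraries called 0 members.

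**Figure D3:**
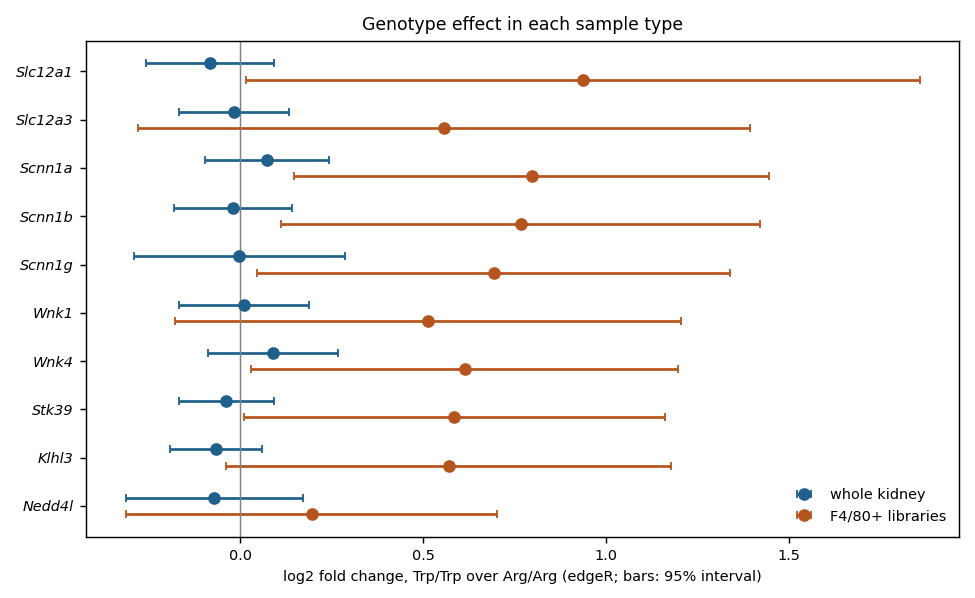
Log2 fold change of each gene, Trp/Trp over Arg/Arg, with its 95% interval from the edgeR fit, in whole kidney (blue, n = 3 a group) and F4/80+ preparations (orange, n = 3 a group). Kidney values lie between -0.08 and 0.09, and F4/80+ values between 0.20 and 0.94 with wider intervals.

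The last comparison set F4/80+ preparations against whole kidney, within the nuclear protein-coding counts. In all, 9 of 10 genes changed, where 64.2% of 13578 genes did. Of the 10, 8 were higher in F4/80+ preparations, beside 32.4% of all genes tested, 1 was lower (Slc12a1), beside 31.8%, and Wnk4 did not pass. Wnk1 rose most, by 4.11-fold, followed by Scnn1g by 3.65-fold. Both cotransporters changed, in opposite directions. The sample types were prepared from different kidneys and deposited in separate tables, so sample type, isolation and any batch cannot be told apart.

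Wnk1 was at 817 ± 56.2 CPM in kidney and 3204 ± 1295 CPM in F4/80+ preparations (SD, n = 6), a log2 fold change of 2.04 ± 0.19 (SE, edgeR, adjusted p = 6.3e-07). It was higher in 6 of 6 F4/80+ libraries than in every kidney library, by 2.17-fold to 6.26-fold over the kidney mean. Wnk4, its partner kinase, was at 238 ± 17.1 and 256 ± 90.5 CPM (SD, n = 6), a log2 fold change of 0.17 ± 0.15 (edgeR, adjusted p = 0.340) with an interval of 0.897-fold to 1.42-fold. Its F4/80+ libraries lay on both sides of the kidney mean, at 0.542-fold to 1.47-fold. Klhl3 rose by 2.57-fold (log2 fold change 1.36 ± 0.17, edgeR, adjusted p = 9.7e-06), Nedd4l by 2.08-fold (1.05 ± 0.12, adjusted p = 2.8e-06) and Stk39 by 2.02-fold (1.02 ± 0.17, adjusted p = 9.5e-05).

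Slc12a3 was at 1757 ± 61.4 CPM in kidney and 4436 ± 2049 CPM in F4/80+ preparations (SD, n = 6), a rise of 2.63-fold (log2 fold change 1.39 ± 0.24, edgeR, adjusted p = 0.000131). Slc12a1 was at 1859.8 ± 144 and 1089 ± 836 CPM (SD, n = 6), a log2 fold change of -0.77 ± 0.30 (edgeR, adjusted p = 0.0332). Its F4/80+ libraries lay below every kidney library except Trp/Trp replicate 2, which was above all of them at 2734 CPM. The fall of Slc12a1 no longer passed without any 1 of 7 libraries (Arg/Arg kidney 1, 2 or 3, Arg/Arg F4/80+ 2 or 3, Trp/Trp F4/80+ 1 or 3), with adjusted p of 0.0574 to 0.0784 in edgeR, and was -1.17 without Trp/Trp F4/80+ replicate 2. The other 8 called genes passed without each library in turn.

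Among the channel subunits Scnn1g rose most, from 73.2 ± 9.38 to 257 ± 99.5 CPM (SD, n = 6), a log2 fold change of 1.87 ± 0.19 (edgeR, adjusted p = 1.4e-06). Scnn1b rose from 64.4 ± 3.56 to 144 ± 60.3 CPM (SD, n = 6), by 2.31-fold (log2 fold change 1.21 ± 0.19, edgeR, adjusted p = 6.5e-05). Scnn1a rose from 234 ± 17.01 to 499 ± 198 CPM (SD, n = 6), by 2.19-fold (log2 fold change 1.13 ± 0.18, edgeR, adjusted p = 9.3e-05). Of the 10 members, 7 were higher in F4/80+ preparations without overlap of libraries, beside 15.2% of all genes tested. Among the 8 genes that rose Scnn1a was the exception, with Arg/Arg F4/80+ replicate 3 at 204 CPM inside the kidney range. Using plain totals in place of TMM scaling shifted the median of all genes in this comparison by -0.12.

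Markers of the distal segments did not all move the same way, and their counts are read against the 32.4% of all 13578 genes that were higher and the 31.8% that were lower. Distal convoluted tubule markers rose in 9 of 10 cases, with a median of 1.80, from a sum of 2009 to 2328 CPM in kidney to 3743 to 11708 CPM in F4/80+ libraries. Among them Tmem52b had a log2 fold change of 2.58, and Trpm6 at 2.19 and the sodium-calcium exchanger gene Slc8a1 at 2.78 are also on the list of channels and pumps. Intercalated cell markers, of the acid-base cells of the collecting duct, rose in 10 of 10 cases with a median of 1.65. Thick ascending limb markers were called near those shares, with 5 of 12 higher, as Kcnj1 at 0.95, and 3 lower, as the tight junction gene Cldn19 at -1.70. Of 10 principal cell markers 5 were higher and 3 lower. Of 16 proximal tubule markers 2 rose and 6 fell, of 10 endothelial markers 0 rose and 8 fell, and of 10 fibroblast and smooth muscle markers 2 rose and 7 fell. Of 15 macrophage markers 4 rose and 6 fell, from -2.70 to 1.34 with a median of -0.14, and Adgre1 had 0.25 ± 0.43 (edgeR, adjusted p = 0.629). The part of the change in cell makeup in the members' values was not tested.

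**Figure D4:**
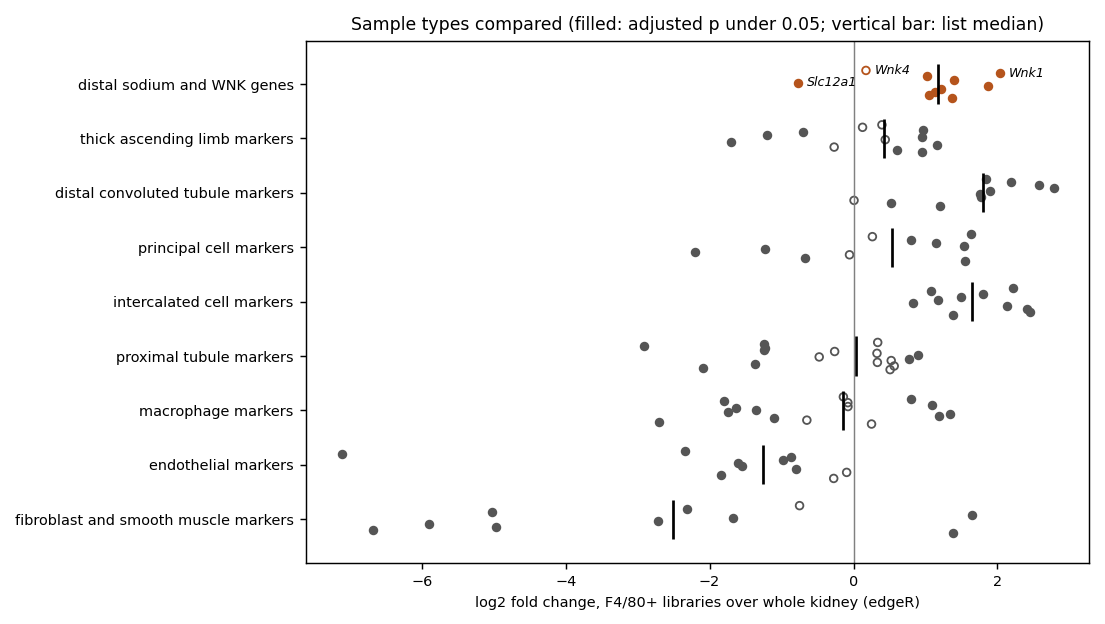
Log2 fold change, F4/80+ preparations over whole kidney (n = 6 each), of the 10 genes (orange) and of 8 lists of cell type markers; filled points passed at an adjusted p under 0.05 in edgeR and bars are medians. The members' median of 1.17 lies below that of distal convoluted tubule (1.80) and intercalated cell markers (1.65), with Slc12a1 at -0.77 and Wnk4 at 0.17 apart from the rest.

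Other genes of the pathway were called in both directions. Of 31 genes of the WNK, aldosterone and ubiquitin list, 12 rose and 7 fell in F4/80+ preparations, beside 32.4% and 31.8% of all genes, with a median of 0.12. Cul3, the scaffold of the KLHL3 ubiquitin ligase, rose with Klhl3, at 1.23 ± 0.12 (edgeR, adjusted p = 7.8e-07). Among the genes that fell were Furin, a protease that activates the sodium channel, at -2.02 ± 0.17, and the steroid-induced genes Fkbp5 at -1.56 ± 0.15 and Zbtb16 at -3.19 ± 0.35. Of 24 other channels and pumps 15 rose and 4 fell, beside the same 32.4% and 31.8% of all genes, with a median of 0.57. Beside Trpm6 and Slc8a1, the basolateral potassium channel genes Kcnj10 and Kcnj16, whose products work together in the distal convoluted tubule, rose by 1.28 ± 0.17 and 1.10 ± 0.11 log2 units.

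Ratios within a library do not depend on library scaling. The Slc12a3 to Slc12a1 ratio was 0.925 ± 0.0108 in Arg/Arg mice and 0.9751 ± 0.123 in Trp/Trp mice in kidney, and 4.71 ± 1.03 and 4.54 ± 2.17 in the F4/80+ preparations (SD, n = 3). The Scnn1b to Scnn1g ratio was 0.901 ± 0.120 and 0.876 ± 0.0403 in kidney and 0.547 ± 0.0123 and 0.568 ± 0.0494 in F4/80+ preparations (SD, n = 3). It was the tightest of the ratios in the F4/80+ preparations, at 0.536 to 0.625 over 6 libraries, while each of its genes ranged more than did the ratio. Wnk1 to Wnk4 was 3.54 ± 0.337 and 3.36 ± 0.402 in kidney and 12.9 ± 1.23 and 12.2 ± 3.26 in F4/80+ preparations (SD, n = 3). The ranges of these 3 ratios, and of Scnn1a to Scnn1g (2.81 to 3.50 in kidney, 1.55 to 2.42 in F4/80+ preparations), did not overlap between sample types.

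Between genotypes, the 6 ratios in both sample types gave 12 exact two-sided permutation tests. With 3 against 3 libraries the smallest p they can give is 0.1, and each Benjamini-Hochberg adjusted p was 0.9. The ratio of Nedd4l to Scnn1a, of the channel's ligase to its alpha subunit, was the only one whose genotypes did not overlap, at 0.687, 0.834 and 1.10 in Arg/Arg and 0.505, 0.512 and 0.615 in Trp/Trp F4/80+ preparations (exact permutation p = 0.1). In kidney it was 0.737 ± 0.0339 and 0.669 ± 0.0619 (SD, n = 3), overlapping (exact permutation p = 0.2).

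**Figure D5:**
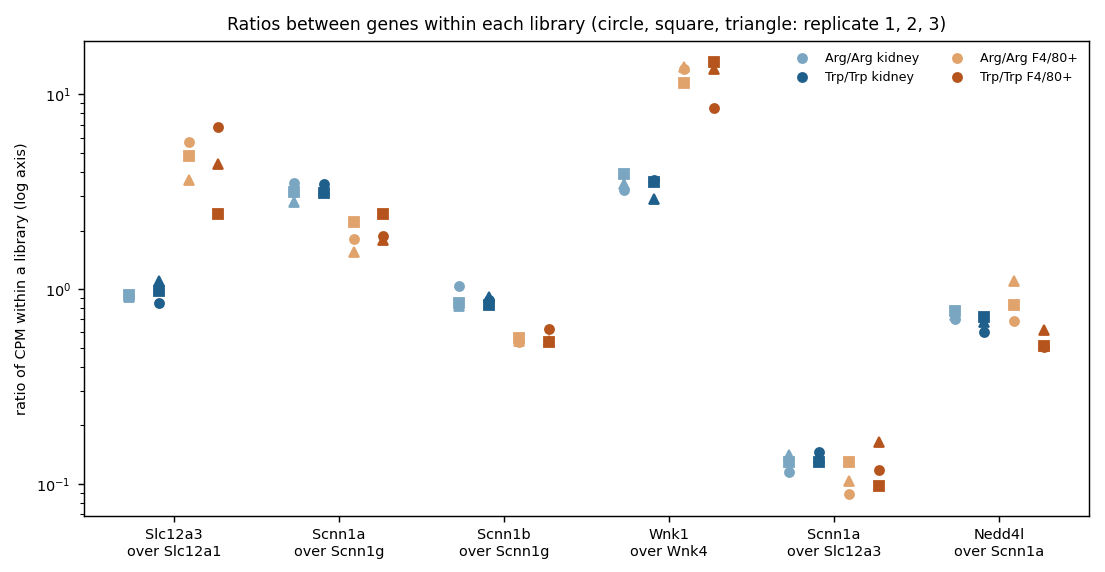
Ratio of 2 genes' CPM in each library, on a log axis, for 6 pairs; colours are groups (n = 3 each) and shapes replicates. Slc12a3 over Slc12a1 lies at 0.850 to 1.10 in kidney and 2.44 to 6.78 in F4/80+ preparations, and Wnk1 over Wnk4 at 2.90 to 3.90 and 8.51 to 14.6.

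Over all 12 libraries, the genes nearest to a member were those with the smallest root-mean-square difference of centred log2 CPM among 9670 genes, a measure that the gap between sample types dominates. Nearest to Slc12a3 were Aopep (0.135), Maml3 (0.158) and Syne1 (0.167). Nearest to Slc12a1 were Mgat4a (0.243), Pla1a (0.284) and Rapgef5 (0.285), each farther from Slc12a1 than Aopep, Maml3 and Syne1 were from Slc12a3. For Scnn1b they were Ptges (0.108), Casz1 (0.119) and L1cam (0.126), while its co-subunit Scnn1a lay at 0.169. Slc12a1 and Slc12a3 lay at 1.16 from each other.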

How the data were processed

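Polyadenylated RNA was sequenced from 12 libraries in 4 groups of 3. The submitters' processing notes name STAR, DRAGEN, DESeq2 and mm10, without saying which step each served, and no source used here names their annotation. Each of the 2 tables held raw counts per gene and library, deposited as whole numbers. Per the file headers, the authors also gave a signal column (mean of scaled counts), a log2 fold change, its linear ratio, score columns (SE and Wald statistic) and p-values. The deposited kidney log2 value is Arg/Arg over Trp/Trp, and its sign was reversed here. Members and lists were chosen with earlier results of these data known.

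Genes were kept by filterByExpr (minimum count 10, minimum total 15), which all 10 members passed, scaled by TMM and tested over the whole table by the quasi-likelihood test of edgeR 4.0.16 (limma 3.58.1, R 4.3.3), adjusting p-values by the Benjamini-Hochberg method with calls at 0.05. DESeq2 1.42.0 was the other tool, and plots used matplotlib 3.10.9 under Python 3.11.15. Sample types and the interaction were fitted on the 13733 nuclear protein-coding genes of both tables. The SE restates the F test. The fits were tested on simulated data. Lengths and coordinates came from GENCODE M21, and promoters from RefSeq, whose table held 8 members used here. Named genes were the 10 members, up to 4 of smallest p from each list described, and the 3 nearest by likeness to Slc12a1, Slc12a3 and Scnn1b, among genes with a mean of at least 10 CPM (log2 with 1 added). Adgre1, Slc8a1, Cldn19, Tmem52b and Kcnj1 were named after their values were seen where they fall outside this rule. Alternatives were DESeq2, other scalings, no filter, no mitochondrial genes, a replicate block and leaving out each library.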

Additional observations from a re-analysis of the deposited data

Results flagged for a closer look

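In each gene the 6 libraries of a sample type were searched for a highest or lowest value set apart from the rest by a Dixon test at its 95% level, in 20 sets of 6, of which chance flags about 1. Slc12a1 was at 1584 CPM in Trp/Trp kidney replicate 3, below the 1868 to 1997 CPM of the other 5 kidneys. Scnn1a was at 200.05 CPM in Arg/Arg kidney replicate 1, below the 237 to 248 CPM of the other 5. Slc12a1 was at 2734 CPM in Trp/Trp F4/80+ replicate 2, above the 483 to 1086 CPM of the other 5 F4/80+ libraries, in the library where thick ascending limb markers also summed highest, at 14819 CPM.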

How the results depend on the processing

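DESeq2 called 15 genes in kidney, 4 in F4/80+ preparations and 7 for the interaction, none of them a member. Leaving out 1 library gave 0 calls in both genotype comparisons and 0 to 580 for the interaction, with 0 to 3 members. Kidney values of the members are small, and 14 of 120 alternative values had the other sign. For Scnn1g it was 0.014 with plain totals and 0.017 with a replicate block. Leaving out 1 kidney gave -0.059 to 0.026 for Slc12a3, -0.011 to 0.12 for Scnn1a, -0.078 to 0.040 for Scnn1b, -0.15 to 0.13 for Scnn1g, -0.054 to 0.051 for Wnk1 and -0.18 to 0.0066 for Nedd4l. The log2 genotype difference of ratios, without each library, ran from -0.019 to 0.16 (kidney) and -0.50 to 0.24 (F4/80+) for Slc12a3 over Slc12a1, from -0.018 to 0.14 (kidney) for Scnn1a over Scnn1g, from -0.10 to 0.074 and -0.020 to 0.090 for Scnn1b over Scnn1g, and from -0.14 to 0.027 and -0.26 to 0.13 for Wnk1 over Wnk4. Slc12a3 over Slc12a1 per kb was 0.492 in kidney and 2.40 in F4/80+ preparations by exons, and 1.04 and 5.09 by the longest coding transcript. The cause of these shifts was not tested.

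All 120 alternative values of the members in the F4/80+ genotype comparison kept their sign and stayed over the threshold, as did 163 of 170 between sample types on their side of it, the other 7 being Slc12a1. Plain totals moved the median of all genes by 0.13 in that genotype comparison. Replicate numbers were not treated as pairs in the main fits. Same-numbered Arg/Arg and Trp/Trp libraries correlated at -0.08, -0.02 and -0.01 in kidney and -0.32, -0.49 and 0.18 in F4/80+ preparations. Differently numbered ones ran from -0.13 to 0.11 in kidney and from -0.14 to 0.49 in F4/80+ preparations. These are correlations of deviations from means of 3 libraries, so they cannot exclude a pairing. With the replicate block, 0 genes were called in both genotype comparisons and for the interaction, and 8177 between sample types. The fewest counts of a member in an F4/80+ library were 534, for Stk39, and whether depth limits that comparison was not tested.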
